A study of Homo sapiens with 15 samples.

Results

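The clustered protocadherins were examined in C4-2B cells. Members were the genes of chromosome 5 whose symbols follow the names of the PCDHA, PCDHB and PCDHG series, C-type genes included. That rule uses no measured value, though it was chosen with earlier results of these data known. The members numbered 54 of the 58302 genes listed: 16 in the alpha array, 16 in the beta array and 22 in the gamma array. All lie on the plus strand of GRCh38, alpha at chr5:140786136-141012347, beta at chr5:141051135-141249365 and gamma at chr5:141330571-141512981. C4-2B is a long-established line of prostate adenocarcinoma that descends from LNCaP. It is labelled wild type and serves in the study as the parental line of neuroendocrine-like cells. It was grown in RPMI with 10% FBS, glutamine and penicillin/streptomycin, with no drug or siRNA. Total RNA was depleted of ribosomal RNA and sequenced from directional libraries in triplicate. The labels name 15 libraries in 5 groups, and the 3 C4-2B libraries were those analysed here. They held 44992971, 49569026 and 46232076 counts in genes, of which the members took 853, 913 and 943, or 0.0019%, 0.00184% and 0.00204%. The study's methods call all its experiments replicated independently in triplicate, while the labels do not say whether the 3 libraries came from separate cultures, so the spread between them may be technical. The prostate luminal markers KLK3, KLK2, TMPRSS2 and KRT8 stood between 197 and 1988 TPM, TPM being counts per base of gene length scaled to the same total in each library. The leukocyte marker PTPRC had 2 counts in all, 1 of 4 neuronal markers reached 1 TPM in every library (SYP, 1.31 TPM), and 1 of 3 fibroblast markers did (COL1A1, 7.09 TPM, with COL1A2 and DCN at 0 counts). Of the basal markers TP63 had 0 counts, KRT5 had 1 in all and KRT14 had 33, 30 and 26 (0.865 TPM).

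Clustered protocadherins are cell-surface adhesion molecules of the cadherin superfamily, best known in the nervous system, where different neurons show different combinations of isoforms and like combinations recognise each other. In the alpha and gamma arrays each gene has its own promoter and its own large variable exon, which holds the extracellular and transmembrane parts, and that exon is spliced to 3 constant exons at the end of the array which encode a shared cytoplasmic tail. Beta genes have a variable exon alone. A promoter is chosen through looping by CTCF and cohesin between the variable promoters and distant enhancers, and most variable promoters carry a conserved sequence element, the CSE, that CTCF binds.

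A read that fell on exons of several genes was assigned to none of them, so the constant exons could add nothing to any member. The alpha array had 3 constant exons of 59, 89 and 2718 bases, at chr5:140978949-140979007, chr5:140982475-140982563 and chr5:141009627-141012344. Together they made 2866 bases under all 15 alpha genes other than the pseudogene PCDHA14. In the gamma array they had 59, 89 and 2033 bases, at chr5:141494807-141494865, chr5:141505393-141505481 and chr5:141510947-141512979, and the 2181 bases lay under all 22 genes. The first and second constant exons of both arrays are of equal length and are given from the GRCh38 plus strand. They are part of the sequence in which reads were lost for every gamma gene and every alpha gene but PCDHA14. Most of that sequence is the third constant exon, which is not shown. Capitals mark positions where alpha and gamma have the same base.
alpha constant exon 1: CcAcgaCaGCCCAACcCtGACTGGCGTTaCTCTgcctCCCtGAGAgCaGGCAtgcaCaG
gamma constant exon 1: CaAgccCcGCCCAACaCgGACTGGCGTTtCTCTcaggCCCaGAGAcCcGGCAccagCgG
alpha constant exon 2: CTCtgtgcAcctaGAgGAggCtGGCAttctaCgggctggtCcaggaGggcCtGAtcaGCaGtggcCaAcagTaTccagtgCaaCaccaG
gamma constant exon 2: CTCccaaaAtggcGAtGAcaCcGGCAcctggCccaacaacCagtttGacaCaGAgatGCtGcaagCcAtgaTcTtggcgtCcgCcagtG
Set base against base, with no gap, 39 of the 59 bases of the first constant exon were the same, or 66.1%. In the second constant exon 29 of 89 were, or 32.6%. No rate for unrelated sequences was computed, so the capitals mark equal bases and are no measure of conservation.

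Promoter windows from RefSeq (GRCh38.p14, 250 bases before the start to 50 after it) were matched for 47 of the 54 members by symbol. PCDHA3, PCDHA13, PCDHA14, PCDHB6, PCDHB11, PCDHGA12 and PCDHGC5 had none. The arrays differed in the letters around a common CGCT. GGTGGCGCT was found in the windows of 13 of 14 beta genes, all but PCDHB1, and of 0 of 13 alpha and 0 of 20 gamma genes. Over all genes of the table, counted on both strands like the others, 0.619% held it. TGTCGCT was found for 10 of 13 alpha genes, missing in PCDHA9, PCDHAC1 and PCDHAC2, and for 1 beta gene, 3 gamma genes and 2.15% of all genes. CGCTGT was found for 17 of 20 gamma genes, 7 of 13 alpha genes, 1 of 14 beta genes and 13.3% of all genes, and the longer GCCGCTGT, which contains it, for 11 gamma genes, 0 alpha or beta genes and 1.98% of all genes. CGCT alone is in 71.9% of all genes' windows and so tells little. These letters were chosen after the promoters had been read, and a match is a description of sequence. From the start, the CGCT core of these matches lay at -81 to -38 in alpha, -79 to 3 in beta and -199 to -39 in gamma, with medians of -51.5, -61 and -58. The 30 bases around the core are shown for the 4 genes of each array with the highest mean TPM among those with the match. PCDHGC4 is also shown, outside that rule, and whether its match is a CSE was not tested. The PCDHB14 stretch lies before the RefSeq start but within the deposited exon bases of the gene, which begin at chr5:141222932. Capitals mark TGTCGCT in alpha, GGTGGCGCT in beta and CGCTGT in gamma.
PCDHA5: tcatccacatgaTGTCGCTggacaccggaa
PCDHA6: ggagccgcatgaTGTCGCTgtctaccatga
PCDHA10: aaagccaccggaTGTCGCTgtcgtccacaa
PCDHA1: ttggccacatgaTGTCGCTgtacaccacaa
PCDHB3: gcgaacgcatGGTGGCGCTgttgactaaga
PCDHB5: taggacgcctGGTGGCGCTgcaggctaaga
PCDHB2: agagacgcggGGTGGCGCTgcagccttaga
PCDHB14: ggagacacatGGTGGCGCTacaggataaga
PCDHGC3: tgggactctgtgtgcCGCTGTcggccaatg
PCDHGA10: taggactctgagcgcCGCTGTtcacctact
PCDHGB5: gctgactctgggcgcCGCTGTtggccaaag
PCDHGA9: taggactctgagcgcCGCTGTtgatcaact
PCDHGC4: gctgagcccgggagcCGCTGTctgccaatc
In the order shown, these windows are chr5:140821543-140821572 (PCDHA5), chr5:140827898-140827927 (PCDHA6), chr5:140855842-140855871 (PCDHA10), chr5:140786087-140786116 (PCDHA1), chr5:141100394-141100423 (PCDHB3), chr5:141135180-141135209 (PCDHB5), chr5:141094545-141094574 (PCDHB2), chr5:141223264-141223293 (PCDHB14), chr5:141475881-141475910 (PCDHGC3), chr5:141412932-141412961 (PCDHGA10), chr5:141397864-141397893 (PCDHGB5), chr5:141402715-141402744 (PCDHGA9) and chr5:141484953-141484982 (PCDHGC4).

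The exon bases that a member could count differed by array. The share of exon bases under another gene had a median of 49.5% in alpha, 5.14% in beta and 43.9% in gamma. At least 40% of exon bases were shared in 28 members, 13 alpha and 15 gamma, while 5.96% of protein-coding genes reach that share and their median is 0. The lowest share in alpha was that of PCDHA4, with 2866 of 13440 bases shared (21.3%), all constant. The highest was that of the pseudogene PCDHA14, whose 2298 bases all lie under PCDHA10, so that no read could be counted for it. Among the coding alpha genes PCDHA12 had the highest, 63.1%. In gamma the share ran from 27.6% in PCDHGA6, of 7910 bases, to 64.4% in PCDHGB4, of 6906 bases. PCDHGB4 and PCDHGA8 shared 2266 bases beyond the constant exons, and PCDHA2 and PCDHA3 shared 562. No beta gene shared exon bases with another member. PCDHB4, PCDHB12 and PCDHB13 had 0 shared bases, and PCDHB16 had the highest beta share, 24.9% of 5001 bases, under unnamed genes.

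**Figure D1:**
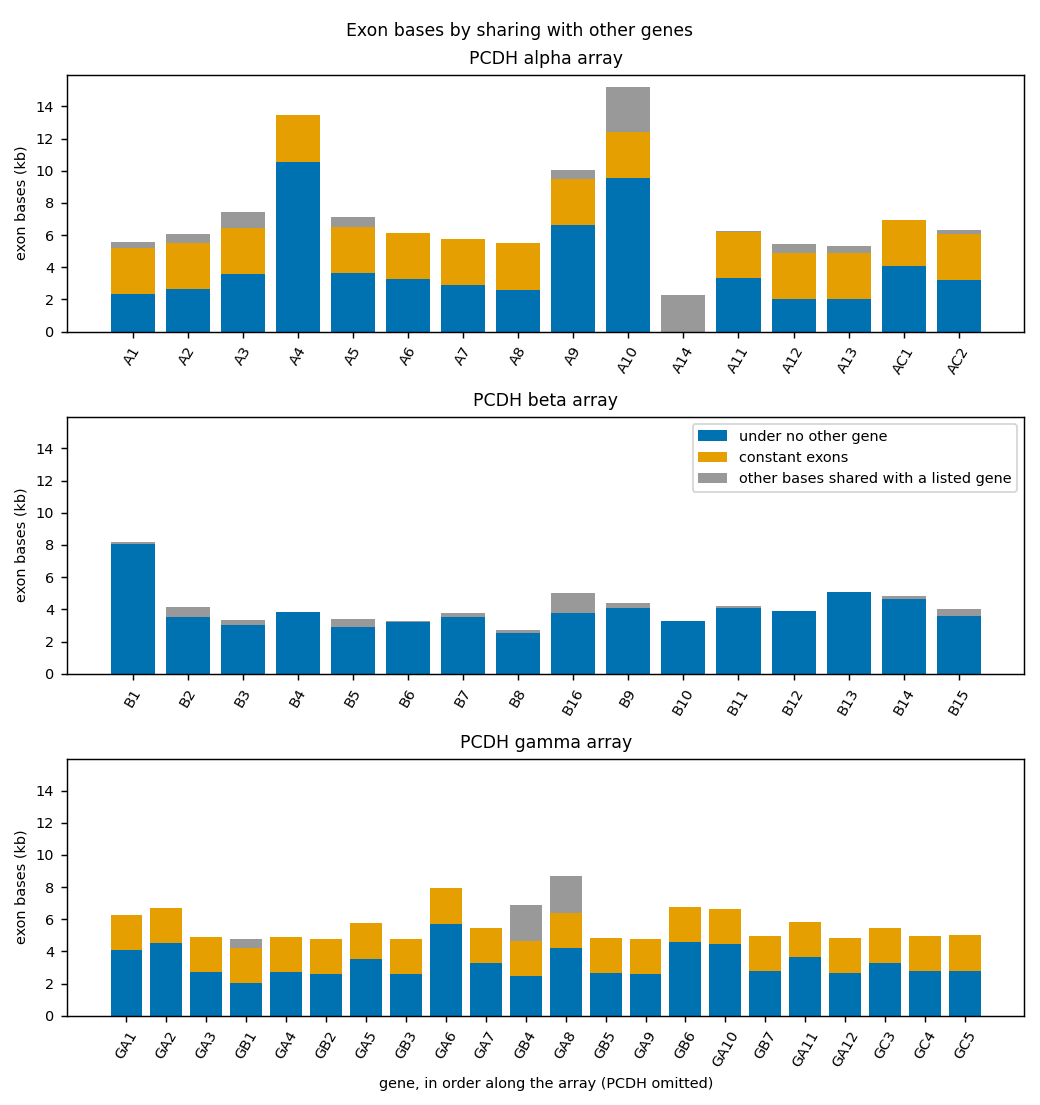
Exon bases of each clustered protocadherin in kb, in order along the array, with bars stacked into bases under no other gene, the constant exons, and other bases under a listed gene. Constant exons take 2866 bases of each coding alpha gene and 2181 of each gamma gene, and PCDHA14 has no base of its own.

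Levels were then compared between the arrays. The gamma array was the highest, taking 92.4% ± 1.29 of the members' counts, against 4.24% ± 0.691 for beta and 3.34% ± 0.696 for alpha (SD, n = 3). Gamma took 798, 831 and 874 counts in the 3 libraries, beta 33, 46 and 36, and alpha 22, 36 and 33. In summed TPM gamma reached 9.75, 9.41 and 10.4 (9.86 ± 0.523), beta 0.555, 0.709 and 0.642 (0.635 ± 0.0770) and alpha 0.174, 0.307 and 0.290 (0.257 ± 0.0723; SD, n = 3). Gamma did not overlap with either of the others in any library, and beta stood above alpha in each. Because alpha and gamma lose the constant exons from their counts but not from their lengths, the sums were also set over the bases under no other gene. Per kilobase of such bases, gamma held 19.2-fold ± 3.08 the counts of beta and 24.6-fold ± 5.89 those of alpha (SD over 3 libraries). Beta over alpha was 1.28-fold ± 0.203, with 1.49, 1.27 and 1.08 in the libraries. With PCDHGC3 left out, gamma was still 12.9-fold ± 1.49 above beta and 16.5-fold ± 3.19 above alpha. Unlike beta genes, nearly all alpha and gamma genes lie, up to the constant exons, within introns of other members. The part of unspliced RNA in these folds was not tested. The median member differed by 0.29 ± 0.06 on the log2(TPM + 1) scale between gamma and beta and between gamma and alpha, and by 0.00 ± 0.02 between beta and alpha, a scale that understates differences among such low genes. No test was made between arrays, since 3 libraries of 1 group allow no exact p under 0.25 and the members of an array are not replicates. In bulk RNA, fewer cells that use a gene and less RNA in each cell cannot be told apart.

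Of the 54 members, 2 stood at 1 TPM or more in all 3 libraries, PCDHGC3 and PCDHGA10, where 32.8% of all listed genes and 61.2% of protein-coding genes do. Counts were present in all 3 libraries for 29 members, 3 alpha, 5 beta and 21 gamma, a level of detection met by 78.2% of protein-coding genes. Another 16 had counts in 1 or 2 libraries, and 9 had none, against 12.6% of protein-coding genes. PCDHA14 could not be counted at any level. For the other 8 members with no counts, 3 counts over the libraries would have given 0.0155 to 0.0315 TPM over the bases under no other gene, the limit that a count of 0 allows, which covers counting error only.

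**Figure D2:**
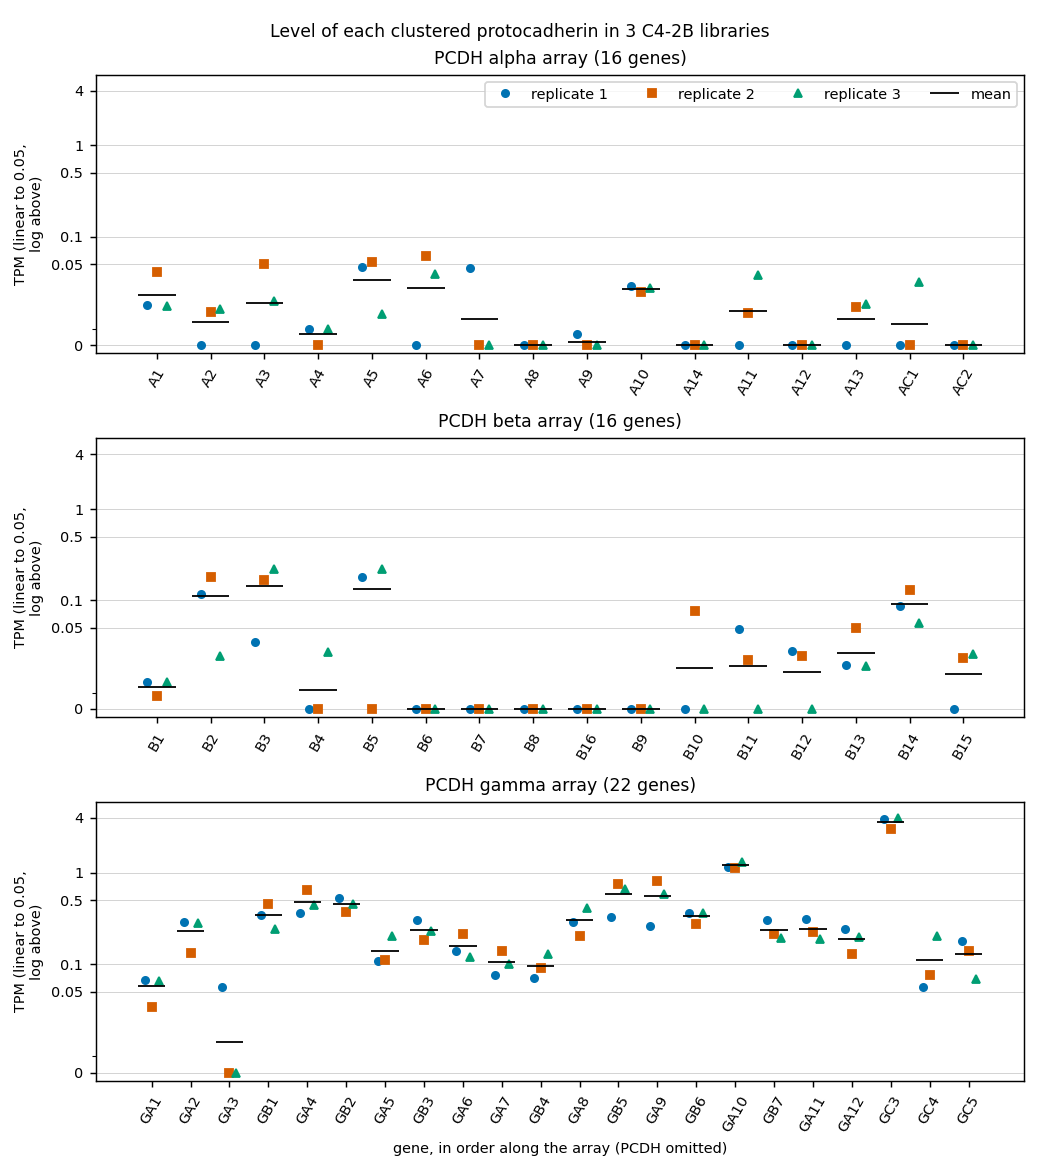
TPM of each clustered protocadherin in the 3 C4-2B libraries (points) with the mean (bar), in order along the alpha, beta and gamma arrays, on an axis that is linear to 0.05 and logarithmic above. The gamma genes PCDHGC3 and PCDHGA10 stand above 1 TPM in every library, and the highest alpha or beta value in any library is 0.222 TPM (PCDHB3).

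Alpha genes, whose products bind the intracellular kinases PTK2 and PTK2B through the constant tail, were close to the limit of detection. The highest by mean TPM was PCDHA5 with 5, 6 and 2 counts (0.0485, 0.0530 and 0.0190 TPM). PCDHA6 followed with 0, 6 and 4 counts (0, 0.0615 and 0.0442 TPM). PCDHA10 had 8 counts in each library (0.0362, 0.0330 and 0.0356 TPM). The ranges of the 3 genes over the libraries overlapped. PCDHA10 had the most alpha counts, 24 in all, over 9555 bases of its own. PCDHA4, with the most bases of its own, 10574, had 2, 0 and 2 counts. Of the C-type alpha genes, which in neurons are expressed more widely than the alternately chosen ones, PCDHAC1 had 0, 0 and 4 counts and PCDHAC2 had 0 in every library. PCDHA8 and PCDHA12 also had 0. Only PCDHA1, PCDHA5 and PCDHA10 were counted in all 3 libraries.

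Beta genes, which encode no constant tail, had counts in 8, 9 and 8 of the 16 members in the 3 libraries. PCDHB3 was the highest with 2, 9 and 11 counts (0.0411, 0.169 and 0.222 TPM). PCDHB5 had 9, 0 and 11 counts (0.182, 0 and 0.218 TPM), so that the second library had none while the others stood among the highest beta values. PCDHB2 had 7, 12 and 2 counts (0.117, 0.183 and 0.0328 TPM). These ranges overlapped. PCDHB16, with the highest beta share of shared bases, had 0 counts, and of those without any PCDHB4 had 0, 0 and 2, PCDHB12 had 2, 2 and 0, and PCDHB13 had 2, 4 and 2. The 5 beta genes with 0 counts were neighbours, PCDHB6, PCDHB7, PCDHB8, PCDHB16 and PCDHB9, over 17068 bases of their own. The 5 genes before them took 20, 22 and 28 counts over 21310 bases and the 6 after them 13, 24 and 8 over 24513, or 3.28 and 1.84 counts per kilobase over the libraries together. This run was noticed after the values were seen and was not tested. The counts beside it were uneven: PCDHB2, PCDHB3 and PCDHB5 had 21, 22 and 20 in all before it, and PCDHB14 had 20 after it. PCDHB1, PCDHB4, PCDHB10, PCDHB11, PCDHB12 and PCDHB15 had 2 to 5 each, and PCDHB13 had 8. Reads that align to several places were not counted, and beta genes resemble each other, so the share of 50-base windows of a gene's own bases that occur once in GRCh38 was computed. It ran from 54.5% (PCDHB8) to 92.1% in the 5 genes without counts, from 75.1% to 95.6% in those before them and from 66.5% to 89.1% in those after them. The part of multi-mapping in the 0 counts was not tested.

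Gamma genes, whose products have been linked to neuronal survival and dendrite self-avoidance, made nearly all of the signal. PCDHGC3, a C-type gene that is widely used outside the nervous system, was the highest of all members with 306, 263 and 319 counts (3.89, 3.04 and 3.98 TPM, 3.63 ± 0.515; 888 counts in all, exact Poisson 95% interval 831 to 948). It took 35.5% ± 3.46 of the gamma counts. The Poisson interval is too narrow, since mates were counted separately. PCDHGA10 was next with 113, 121 and 130 counts (1.17, 1.14 and 1.32 TPM, 1.21 ± 0.0969) and 14.5% ± 0.358 of the gamma counts. PCDHGC3 stood 2.99-fold ± 0.327 above PCDHGA10 in TPM and 3.36-fold ± 0.367 in TPM over the bases under no other gene (SD over 3 libraries), with no overlap between libraries. PCDHGB5 was the third with 23, 58 and 48 counts (0.327, 0.751 and 0.670 TPM), all below PCDHGA10. PCDHGA9 followed with 18, 62 and 41 counts (0.261, 0.820 and 0.584 TPM), PCDHGA4 with 26, 50 and 32 (0.367, 0.643 and 0.443 TPM) and PCDHGB2 with 37, 28 and 32 (0.535, 0.369 and 0.454 TPM). The next in mean TPM were PCDHGB1 (0.350), PCDHGB6 (0.334) and PCDHGA8 (0.301), and the others lay from 0.0189 to 0.241. From PCDHGB5 down, most neighbours in the order could not be told apart. Of the 21 pairs of neighbours in the order of gamma levels, 18 overlapped in their ranges. The exceptions were the pairs under PCDHGC3 and PCDHGA10 and the pair of PCDHGB4 and PCDHGA1. Genes further apart could separate: PCDHGB2, at 0.369 to 0.535 TPM, stood above PCDHGA5, at 0.108 to 0.201.

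The A and B types of gamma genes are interspersed along the array. The 12 A-type genes took 40.8% ± 2.50 of the gamma counts and the 7 B-type genes 21.5% ± 1.49. Per kilobase under no other gene B-type genes held 1.18-fold ± 0.0763 the counts of A-type genes, with 1.25, 1.20 and 1.10 in the libraries. Within the A type the levels ran from 0.0189 TPM in PCDHGA3, with 4, 0 and 0 counts, to 1.21 in PCDHGA10, and within the B type from 0.0961 in PCDHGB4, with 7, 10 and 13 counts, to 0.583 in PCDHGB5. PCDHGA6, with the lowest share of shared bases in gamma, had 16, 27 and 14 counts (0.158 ± 0.0499 TPM). The other C-type gamma genes were far below PCDHGC3: PCDHGC4 had 4, 6 and 15 counts (0.0555, 0.0758 and 0.204 TPM) and PCDHGC5 had 13, 11 and 5 (0.180, 0.138 and 0.0678 TPM). Without the third library PCDHGC4 fell from 0.112 to 0.0656 TPM. The C-type genes thus had counts of 888, 25 and 29 in gamma and of 4 and 0 in alpha, while 100% of the 50-base windows were unique in all 5.

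When levels were set over the bases under no other gene, the values of the gamma genes were higher, and places 1 to 7 in the order of level were held by the same genes. PCDHGC3 reached 5.79 ± 0.821 TPM, PCDHGA10 1.72 ± 0.137, PCDHGB5 1.01 ± 0.390 and PCDHGA9 0.979 ± 0.494 on this scale, and the summed gamma level went from 9.86 to 16.2 ± 0.796. Alpha went from 0.257 to 0.485 ± 0.151 and beta from 0.635 to 0.669 ± 0.0747, so that beta over alpha narrowed. PCDHGB4 moved from place 23 to place 15 among all members, since 35.6% of its bases were its own. The share of unique 50-base windows in these bases ran from 78.7% (PCDHGB4) to 100% in gamma, with a median of 93.3%, and its median in alpha was 93.5%. In alpha and gamma these bases also lie within introns of other members, except for PCDHA1 and PCDHGA1, the first of each array. No beta gene lies within the span of another member. The variable exon of PCDHGC3 lies within the span of 19 other gamma genes, and 402 of its 3251 own bases lie between the constant exons. A read there is counted for PCDHGC3 whichever RNA it came from. The part of unspliced RNA in its level, or in that of any other member, was not tested.

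**Figure D3:**
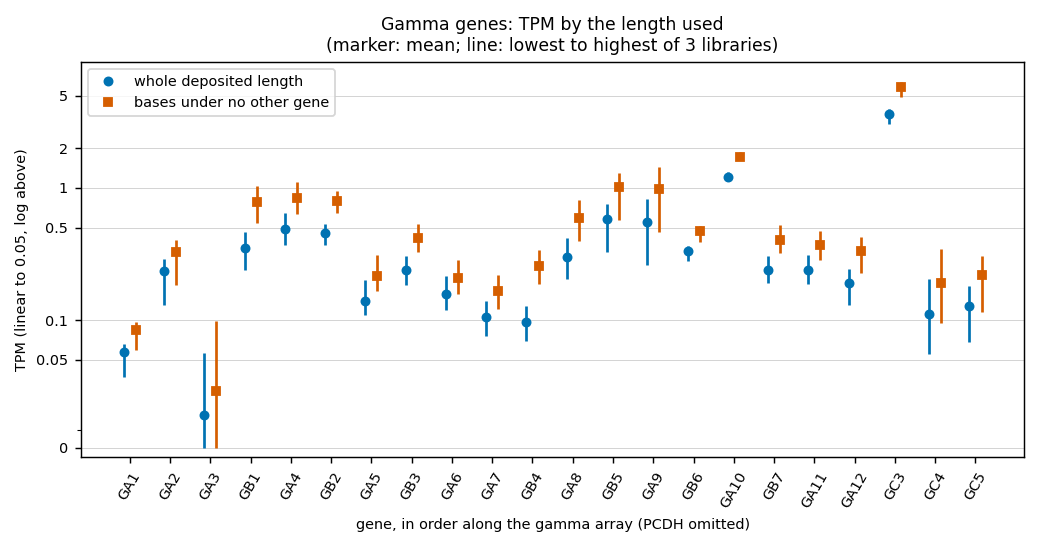
Mean TPM (marker) and the range over 3 libraries (line) of the gamma genes, computed with the whole deposited length or with the bases under no other gene, on an axis that is linear to 0.05 and logarithmic above. PCDHGC3 goes from 3.63 to 5.79 and PCDHGA10 from 1.21 to 1.72, and both stay above all others.

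The promoters of PCDHGC3 and PCDHGA10, the members with the most counts, are given up to the first exon base of the deposited tables, on the plus strand of GRCh38.p14, with GCCGCTGT in capitals.
PCDHGC3: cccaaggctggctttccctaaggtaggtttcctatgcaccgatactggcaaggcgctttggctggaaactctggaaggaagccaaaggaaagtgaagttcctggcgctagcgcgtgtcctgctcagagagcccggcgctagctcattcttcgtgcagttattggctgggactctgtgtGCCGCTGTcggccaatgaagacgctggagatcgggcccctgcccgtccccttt
PCDHGA10: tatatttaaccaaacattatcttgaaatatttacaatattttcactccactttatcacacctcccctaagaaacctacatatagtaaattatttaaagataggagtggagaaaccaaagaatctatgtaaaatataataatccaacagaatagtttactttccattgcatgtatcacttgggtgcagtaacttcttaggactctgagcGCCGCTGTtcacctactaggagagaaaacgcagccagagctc
The first is chr5:141475716-141475946 (231 bases, 58.4% G or C, 5 copies of CGCT on the strand shown). The second is chr5:141412737-141412986 (250 bases, 35.2% G or C, 1 copy on the strand shown). Both hold GCCGCTGT, as do PCDHGB5 and PCDHGA9. The 11 gamma genes with it ran from 0.0571 TPM (PCDHGA1) to 3.63, with a median of 0.334, and the 9 without it from 0.0189 (PCDHGA3) to 0.484 (PCDHGA4), with a median of 0.237. These ranges of means overlap up to 0.484 TPM, above which stand PCDHGC3, PCDHGA10, PCDHGB5 and PCDHGA9. Within libraries PCDHGB5 and PCDHGA9 were not set apart: they had 0.327 and 0.261 TPM in replicate 1. PCDHGA4, without the match, reached 0.643 TPM in replicate 2. No test was made, and the letters had been chosen after the promoters were read.

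Whether the members varied between the 3 libraries by more than counting error was asked next. A chi-square test of the counts against TMM-scaled library sizes, divided by 2 because both mates of a pair were counted, was run on every gene with 30 or more counts. It called 176 of 22229 genes at a Benjamini-Hochberg adjusted p under 0.05, or 0.792%. Of the 54 members 17 had enough counts, all gamma, and 0 of them were called. At an unadjusted p under 0.05 there were 3, where 11.3% of all genes tested pass. PCDHGA9 had 18, 62 and 41 counts (chi-square p = 0.00696, adjusted 0.223), with the first library low. PCDHGB5 had 23, 58 and 48 counts (chi-square p = 0.0468, adjusted 0.435), low in the same library. PCDHGC3, with the counts given above, was at chi-square p = 0.0466, adjusted 0.434, with the second library lowest. With the chi-square left undivided, 4 members were called, PCDHGA9, PCDHGC3, PCDHGB5 and PCDHGA8, where 17.3% of all genes are. This test compares libraries, not conditions. At counts as low as most of the members', the adjusted test can miss large differences: even 18, 62 and 41 counts (PCDHGA9) did not pass. The 0 members called thus do not show that their levels were even between libraries.

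The genes that act on the cluster were present throughout. All 18 chromatin regulators listed stood at 1 TPM or more in every library, with a median of 37.7 TPM. CTCF, the zinc finger protein that marks loop ends, was at 66.4, 70.1 and 67.3 TPM. Among the cohesin subunits RAD21, the highest of the list, had 145, 144 and 142 TPM, SMC1A 87.5 ± 0.191 and SMC3 97.6 ± 2.44. NIPBL, which loads cohesin, stood at 30.3 ± 1.10, and WAPL, which releases it, at 28.8 ± 0.848. ZNF143, which binds promoters at loop contacts, was at 24.1 ± 0.702, and SMCHD1, a silencer of protocadherin promoters, at 62.2 ± 1.47. DNMT3A, a DNA methyltransferase, was the lowest at 12.2 ± 0.0255 TPM (SD, n = 3 in each). The library test called 0 of these 18 genes, and 4 with the chi-square undivided.

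Proteases and partners downstream of the proteins were likewise counted. All 8 genes of cadherin cleavage, the sheddases ADAM10 and ADAM17 and the parts of gamma-secretase, stood above 1 TPM, from ADAM17 at 14.2 ± 0.120 to APH1A at 109 ± 3.19. Of 13 genes of the WAVE actin regulator and the kinases that meet protocadherin tails, 12 did, the WAVE subunit BRK1 being the highest at 280.0 ± 2.27. The exception was the kinase RET at 0.407 ± 0.110, with 52, 33 and 41 counts. PTK2 and PTK2B, named above, stood at 27.4 ± 0.120 and 50.1 ± 1.02. The library test called 0 of the 8 and 0 of the 13, and 1 and 0 with the chi-square undivided.

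Other cadherins ranged from near 0 to some of the highest levels of the lists. Among 12 non-clustered protocadherins 1 stood at 1 TPM or more in all libraries: PCDH1, an epithelial protocadherin, at 28.4, 30.3 and 29.4 TPM. The lowest was PCDH10 with 2, 0 and 0 counts, and the list median was 0.0429 TPM. PCDH20, at 0.0334 TPM with 4, 0 and 3 counts, had 201 of its 4778 exon bases under no other gene. Over those it was at 1.31, 0 and 0.963 TPM (mean 0.757), a value that rests on few counts. Of 5 classical cadherins CDH1, the epithelial E-cadherin, reached 369 ± 6.07 TPM, while CDH2, the neuronal N-cadherin, had 4, 2 and 6 counts and CDH11 was lowest with 0, 2 and 0. The library test called 0 of the 5 non-clustered protocadherins and 0 of the 3 classical cadherins that had enough counts, and 1 of each list with the chi-square undivided.

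Genes beside and between the arrays were not low as a whole. Of 7 flanking genes 6 stood at 1 TPM or more, DIAPH1, a formin, the highest at 190.5, 190.2 and 188.5 TPM. TAF7, a subunit of the general transcription factor TFIID that sits between beta and gamma, was at 73.3 ± 0.511 TPM. SLC25A2, a carrier gene also between them, had 0 counts in all libraries. HDAC3, a histone deacetylase, stood at 40.8 ± 2.11, and 0 of the 6 flanking genes with enough counts were called between libraries, 1 with the chi-square undivided (HDAC3).

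**Figure D4:**
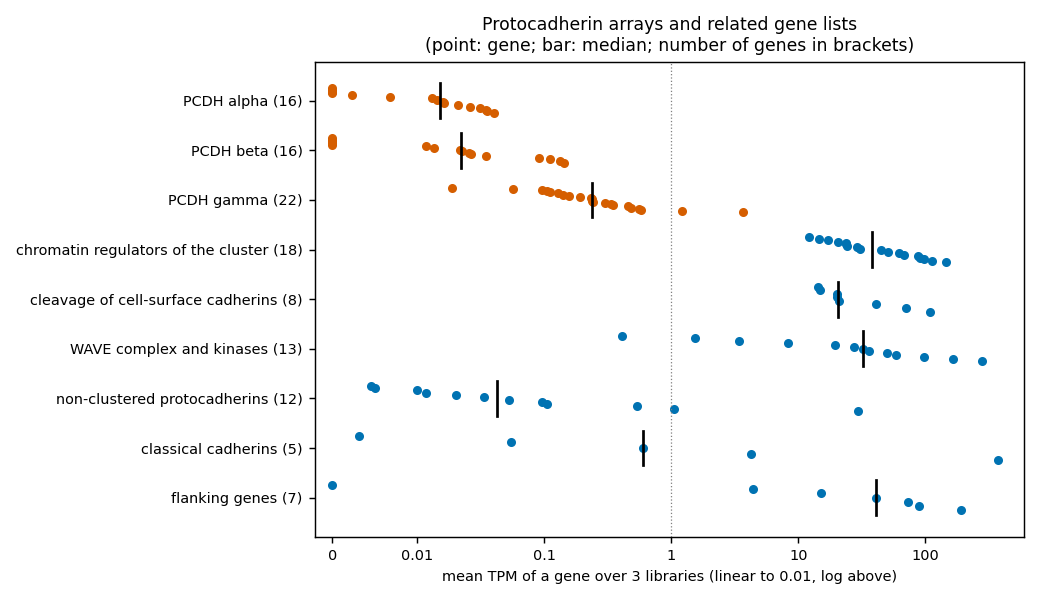
Mean TPM over 3 libraries of each gene (point) in the 3 protocadherin arrays and in 6 related lists, with the median of each list (bar), on an axis that is linear to 0.01 and logarithmic above. All 18 chromatin regulators lie at 12.2 TPM or more, while 2 of the 54 clustered protocadherins lie above 1 TPM.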

How the data were processed

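RNA-seq counts of 3 C4-2B libraries were used, and the members and gene lists were chosen with earlier results of these data known. The authors trimmed reads with Trim Galore, aligned them to GRCh38 with STAR 2.7.0f and counted them with featureCounts of Subread 1.6.3 over Ensembl release 90, and deposited raw counts per gene. Per the file headers only the annotation, the output and 3 threads were set, so strand was ignored, mates were counted separately, and reads with several alignments or over several genes were left out. The deposited gene length, another value per gene, is the union of its exons. Reads over bases that a member shares with an overlapping or antisense listed gene were therefore counted for neither. The authors' TPM values were not used.

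TPM and CPM were computed here from the counts, the deposited length and each library's total. Bases under no other gene came from the deposited exon coordinates, strand ignored. Libraries were compared by a chi-square test with TMM factors (edgeR 4.0.16, R 4.3.3), divided by 2, with 2 degrees of freedom, over genes with at least 30 counts and Benjamini-Hochberg adjustment. DESeq2 1.42.0 gave alternative size factors. On simulated counts with both mates counted, 0 of 22316 genes were called without change, and 129 of 199 genes doubled in 1 library were called (64.8%, among 22351 genes tested). The doubled genes were drawn from all genes with at least 30 counts, so this share does not give the power at the members' counts. In the simulation both mates were always counted, while odd counts, such as 23 for PCDHGB5 in replicate 1, show that this did not always hold. Symbols were matched by Ensembl identifier for 57532 of 58302 genes, and gene types came from GENCODE 44. All members may be named; those given per library are the 3 highest of each array, the C-type genes, members past the library test and those with the highest or lowest share of shared bases, and of the lists the main loop regulators, the highest and the lowest. Genes given beyond these were chosen after their values were seen. Intervals and limits (3 counts, 95%) cover counting error only and are too narrow, since mates were counted separately and no molecular identifiers were used. The other 4 groups of libraries were not analysed here. Alternatives were another length, CPM, other denominators, pseudocounts, thresholds, scalings and leaving out each library. A planned description of level by position along the arrays, and its alternatives, is not reported here.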

Additional observations from a re-analysis of the deposited data

How the results depend on the processing

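No paired analysis was possible because the libraries analysed belong to 1 group. Leaving out each library in turn, 38 to 223 genes differed between libraries in place of 176, and 0 members in each case. The lowest, 38, was without replicate 1, and 44 remained without replicate 3. With the chi-square undivided 4 members and 3835 genes were called. The 0 members called stayed at 0 under DESeq2 size factors, total counts and minimums of 10 or 100 counts. Members at the TPM threshold in all 3 libraries were 2 under every other alternative and 1 at 2 TPM.

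Summed levels of alpha, beta and gamma moved with the unit. They were 0.485, 0.669 and 16.2 TPM over the length outside other genes' exons, 0.643, 0.813 and 17.8 CPM, 0.372, 0.919 and 14.3 TPM with a denominator lacking the 10 most abundant and the mitochondrial genes, and 0.540, 0.805 and 17.1 TPM with that length also scaled by unique 50-base windows, an alternative chosen after the data were seen. Gamma without PCDHGC3, also chosen later, was 6.23 TPM. Leaving out a library gave 0.232 to 0.299 for alpha, 0.598 to 0.675 for beta and 9.58 to 10.1 for gamma.

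The gamma minus beta difference of medians was 0.46 over the length outside other exons, 0.46 in CPM, 0.40 with the other denominator, 0.48 with unique windows, 1.59 with a pseudocount of 0.1 and 0.38 with means. For gamma minus alpha these were 0.45, 0.46, 0.40, 0.46, 1.61 and 0.41. Beta minus alpha was 0.0205 with the pseudocount of 0.1 and 0.0311 with means, and its sign varied between alternatives within the spread. Leaving out a library gave 0.26 to 0.31 for gamma minus beta, 0.26 to 0.31 for gamma minus alpha and -0.0029 to 0.0123 for beta minus alpha. Medians over members with at least 30 counts could not be computed, as no alpha or beta gene has that many. When a library was left out, PCDHA7, PCDHA9 and PCDHGA3 (without replicate 1), PCDHB10 (without replicate 2) and PCDHAC1 and PCDHB4 (without replicate 3) went to 0. PCDHB11 went to 0.0150 TPM without replicate 1, PCDHA3 to 0.0136 and PCDHA6 to 0.0221 without replicate 2, and PCDHGC4 to 0.0656 without replicate 3, and PCDHA11 was 2.10 times lower without replicate 3, each a move of over 1.5 times.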
